A study of Mus musculus with 24 samples.

Results

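The ablation of Hdac1 and Hdac2 in dermal papilla (DP) cells of mouse skin was compared between the growing and the resting phase of the hair follicle. For each gene, the effect of the ablation (the mean of the dM1/2 libraries minus that of the control libraries, on the log2 scale) was averaged over the anagen ages P24 and P28 and over the telogen ages P20 and P60, and the telogen effect was subtracted from the anagen effect. A positive difference therefore means that the dM1/2 libraries stood higher, relative to their controls, in anagen than in telogen. All 24 of the 24 libraries entered, 12 from anagen and 12 from telogen, and 14243 of 25755 listed genes had a mean of at least 10 normalized reads and were tested. Genes entered by that mean over all libraries and libraries by their age, and the genes and lists named below were chosen with earlier results of these data known.

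Every mouse carried the Cor-cre allele, in which Cre is made from the Corin locus, and the sorted cells were those with the YFP reporter that Cre switches on. The dM1/2 mice carried floxed alleles on both copies of Hdac1 and of Hdac2. The control genotypes listed for the study are Cor-cre with 1 floxed copy of Hdac1, of Hdac2 or of both, or with both copies of either gene and 1 copy of the other floxed, and the labels do not say which control library had which genotype. Each of the 8 groups, dM1/2 or control at P20, P24, P28 or P60 (ages in days after birth), held 3 libraries, each from the skin of an individual mouse. P20 and P60 were the first and the second telogen, and P24 and P28 an early and a middle stage of the anagen between them.

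The DP is a small body of mesenchyme under the hair follicle. In telogen it rests beside the stem cells of the follicle, and in anagen it is enclosed by the hair matrix, whose division it drives with secreted signals such as FGFs, Wnts and R-spondins. DP cells themselves divide rarely. HDAC1 and HDAC2 are closely related enzymes that remove acetyl groups from histones and other proteins as the catalytic subunits of the Sin3, NuRD and CoREST corepressor complexes, which are recruited to genes by DNA-binding factors such as E2F with pocket proteins, or REST.

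Several properties moved with the stage. The anagen libraries held 35469841 to 49331751 reads on genes and the telogen libraries 8171944 to 13369732, and the anagen mice were male and the telogen mice female, as Ddx3y (968.9 to 1738.2 normalized reads in anagen, 0.0 in each telogen library) and Xist (8113.4 to 26332.8 in telogen, at most 3.9 in anagen) showed. Stage, sex and depth cannot be told apart in these libraries. Of 12 DP markers, 12 were measured, with a summed level of 140074 to 404602 normalized reads in the anagen controls and 27959 to 41461 in the telogen controls. At P20 the dM1/2 libraries held more of this sum, 46560 to 65335 against 34345 to 40563 in the controls, and at P24 less, 168879 to 211164 against 298133 to 379315. The groups overlapped at P60, with 16700 to 40643 against 27959 to 41461, and at P28, with 139171 to 155900 against 250710, 140074 and 404602. In these bulk samples fewer DP cells and less RNA per cell cannot be told apart. The summed level of 8 markers of other dermal fibroblasts was 65290 to 106442 in the P20 controls and 43720 to 60770 in the P20 dM1/2 libraries, while in the 3 P28 controls it was 45278, 77659 and 5884. With this sum as a covariate, an analysis added after the data were seen, 4281 of the 4298 genes called below were called again. None of the marker genes of keratinocytes, melanocytes, endothelium, immune cells or skeletal muscle that could be tested had a difference past the threshold. Plin1 (-2.58) and Pparg (-1.91) of the adipocyte list, Myl9 (-1.25) of the smooth muscle list and Cdh19 (-2.94) of the Schwann cell list did. So did Dlk1 (2.14) of the other dermal fibroblast list, on the positive side.

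**Figure D1:**
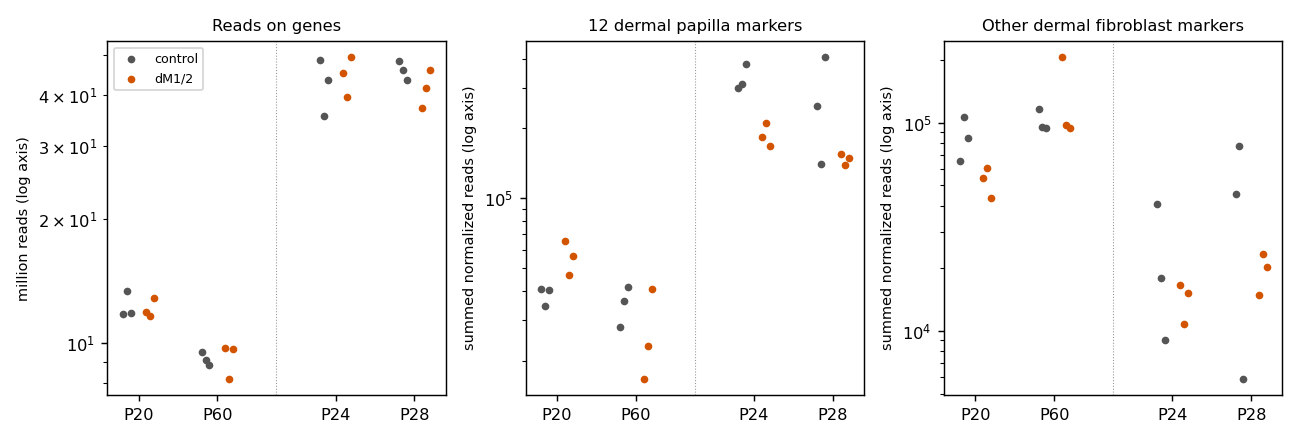
Reads on genes, summed normalized reads of 12 dermal papilla markers and summed normalized reads of 8 markers of other dermal fibroblasts in each of the 24 libraries, on log axes, by age and genotype, with each point a library. The telogen ages P20 and P60 stand low in reads and in dermal papilla markers, and P28 control 3 has the lowest fibroblast sum, 5884.

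The targeted genes themselves were read first. Hdac1 (chr4:129516104-129542713, GRCm38) had 674.7, 668.2 and 668.5 normalized reads in the P24 controls against 209.0, 187.8 and 116.0 in dM1/2, and 213.6, 529.0 and 104.7 in the P28 controls against 190.2, 148.7 and 125.7. At P20 the controls held 375.0, 511.3 and 504.8 and the dM1/2 libraries 216.0, 369.6 and 270.0, and at P60 505.9, 359.9 and 375.8 against 371.1, 347.0 and 317.7. The groups stood apart at P20 and P24 and overlapped at P28 and P60. The anagen effect was -1.29 (adjusted p = 0.000422, limma), the telogen effect -0.48 (adjusted p = 0.574) and the difference -0.81 ± 0.37 (standard error, SE), which did not pass (adjusted p = 0.109). The library labelled P28 control 3, with 104.7 normalized reads, lay below each P28 dM1/2 library in Hdac1, against its label, while in Ccnd1 and Corin, given below, it stood with the controls. The control genotypes include mice with both copies of Hdac1 and 1 copy of Hdac2 floxed, and which library came from them is not given. Without this library the difference of Hdac1 was -1.09 and passed (adjusted p = 0.00778), and the count of genes called over all genes, 4298 with it, was 4399. With all libraries the Hdac1 difference passed in DESeq2 (-0.94, adjusted p = 0.0453). In limma it passed with estimated library weights (-0.70, adjusted p = 0.016) and with P24 as the only anagen age (-1.53, adjusted p = 0.0345). The call thus hung on the setting. For Hdac2 (chr10:36974544-37001889) the anagen effect was 0.21 (adjusted p = 0.0252), the telogen effect 0.03 and the difference 0.18, with a 95% interval of -0.04 to 0.40. Reads per gene also count transcripts outside the floxed exons, so these values do not measure how far either protein was lost, and the extent of deletion at each stage was not tested.

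The difference passed the threshold (adjusted p under 0.05, limma on log2 of normalized reads + 1) for 4298 genes, 30.2% of those tested, of which 2294 (16.1%) were positive and 2004 (14.1%) negative. The large differences were mostly positive: 1047 genes had a difference of at least 1, 388 of at least 2 and 44 of at least 4, against 735, 131 and 5 genes on the negative side. Over all genes the median difference was -0.03, with a median SE of 0.23. The anagen effect passed for 6797 genes (47.7%), 3555 higher and 3242 lower in dM1/2, whereas the telogen effect passed for 28 (0.197%), 27 of them higher. At an unadjusted p under 0.05 the telogen count was 1372. The telogen count also hung on single libraries: it was 160 without P60 dM1/2 replicate 1, the library with the highest fibroblast sum (206250), and 4 without P60 control 2. The median size of the effect over all genes was 0.41 in anagen and 0.14 in telogen.

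Among the genes with a positive difference, the median effect was 0.79 at P24 and 1.07 at P28, and 0.02 at P20 and -0.03 at P60. Among those with a negative difference it was -0.67 and -0.90 in anagen, and -0.02 and 0.07 in telogen. The effect passed in anagen but not in telogen for 2226 of the positive and 1924 of the negative genes, in both stages for 9 and 1, and in neither for 59 and 76. Each of the 4 pairs of an anagen and a telogen age gave the same sign for 2234 positive (97.4%) and 1921 negative genes (95.9%). The difference that chose these genes is the mean over the same 4 pairs, so this agreement was largely set by the choice and is a description. Within a stage fewer genes passed: the effect differed between P24 and P28 for 90 genes (0.632%), and between P20 and P60 for 9 (0.0632%). With a single library left out these counts ran from 23 (without P28 dM1/2 replicate 2) to 159 (without P60 dM1/2 replicate 1) and from 3 (without P24 control 2) to 85 (without P60 dM1/2 replicate 3). The telogen estimate had the other sign from the anagen estimate for 1200 of the 2294 positive and 1091 of the 2004 negative genes. The difference that chose these genes favours such telogen estimates. With the anagen effect past the threshold and the telogen estimate at least 1 in size, 9 positive and 7 negative genes remained. In 2 genes both effects themselves passed with opposite signs.

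**Figure D2:**
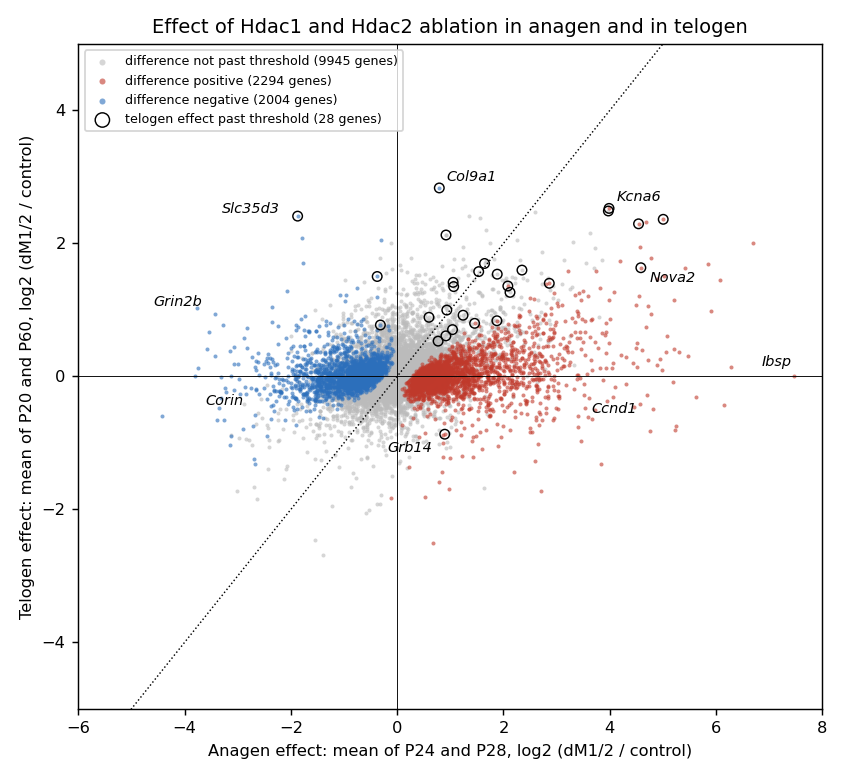
The effect of the ablation on each of 14243 genes in anagen (horizontal) and in telogen (vertical), as log2 of dM1/2 over control, with colours for a positive or negative difference past the threshold, circles for the 28 genes with a telogen effect past it and a dotted diagonal for equal effects. The cloud is wide and flat: the median size of the effect is 0.41 in anagen and 0.14 in telogen.

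The lists of cell division lay far to the positive side, where 16.1% of all genes were called. Of 50 genes of DNA replication, 46 had a positive difference and 0 a negative one, with a median difference of 1.5. Their median effect was 1.23 at P24 and 1.86 at P28, and -0.04 at P20 and 0.00 at P60. Of 59 genes of mitosis and the kinetochore 43 were positive and 0 negative (median 2.05), and of 22 cyclins, cyclin-dependent kinases (CDKs) and their phosphatases 18 were positive and 0 negative (median 1.71). The median over all genes was -0.03.

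Ccnd1 (chr7:144929931-144939925), cyclin D1, which carries cells through G1, had the largest difference of the cyclins. It had 400.4, 553.8 and 165.5 normalized reads in the P24 controls and 2174, 3042 and 5540 in dM1/2, and 374.1, 643.6 and 250.7 against 5733, 5435 and 4479 at P28. In telogen its levels were 891.9, 1209 and 1073 against 720.8, 756.9 and 665.8 at P20, and 594.0, 734.1 and 355.1 against 391.3, 432.5 and 931.9 at P60. At both anagen ages each dM1/2 library stood above each control, at P20 each stood below, and at P60 they overlapped. The difference was 3.79 ± 0.42 (adjusted p = 8.17e-06), from an anagen effect of 3.52 and a telogen effect of -0.27.

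Rrm2, a subunit of the enzyme that makes deoxyribonucleotides, had 75.7, 139.6 and 91.4 normalized reads in the P28 controls and 795.7, 946.6 and 1172 in dM1/2, and 155.3, 438.3 and 321.2 against 97.8, 223.5 and 268.2 at P20. Its difference was 3.04 ± 0.37 (adjusted p = 1.71e-05). Mcm10, which helps to load the replication machinery, had a difference of 3.13, and Chaf1b, a subunit of the complex that places new histones behind the fork, of 3.04. Cyclins downstream of cyclin D1 moved too, with differences of 3.34 for Ccne1 and 2.64 for Ccna2. In mitosis the largest differences were those of the kinetochore protein Spc25 (3.36), the spindle assembly factor Tpx2 (2.89) and the condensin subunit Ncapg (2.86). The telogen controls were themselves uneven for such genes: Ccna2 had 24.1, 284.1 and 203.6 normalized reads in the P20 controls and 22.7, 79.7 and 168.3 in dM1/2.

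Of 26 genes of the E2F, Rb and Myc families, 14 were positive and 1, the Max-binding repressor Mga (-0.45), negative. Mga no longer passed with 11 of the 24 libraries left out singly, with edgeR (adjusted p = 0.0589) or with the replicate block (0.0858). Mycn, a Myc family activator of growth, showed the largest difference of the list, 3.94 ± 0.52 (adjusted p = 3.23e-05). It had 5.2, 7.0 and 0.8 normalized reads in the P28 controls and 271.6, 279.8 and 251.3 in dM1/2, against 67.0, 32.5 and 71.7 and 97.8, 79.7 and 107.3 at P20. The anagen controls thus lay below the P20 controls, and the anagen dM1/2 libraries above the P20 ones. Inhibitors of the cycle moved in the same direction, and 6 of 8 CDK inhibitors had a positive difference and 0 a negative one. Cdkn1a (p21) had a difference of 1.96, Cdkn2a (p16 and p19ARF) of 2.16 and the phosphatase Cdkn3 of 3.63. Cdkn2a held 2.3 to 9.4 normalized reads outside the anagen dM1/2 libraries and 12.7 to 35.4 in them. It thus passed the filter on low reads only through those libraries. In limma with P24 as the only anagen age none of these calls passed (adjusted p = 0.241, 0.098 and 0.081). Against P60 alone that of Cdkn2a was also lost (adjusted p = 0.0664). Cdkn1a was itself much higher in telogen: its controls there held 3289 to 9329 normalized reads, its anagen controls 147.5 to 1000 and its anagen dM1/2 libraries 848.9 to 2509.

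Histone genes that are copied with DNA followed the replication genes. Of 57 such genes, 48 had a positive and 0 a negative difference (median 2.13), with median effects of 1.45 and 3.28 at the anagen ages P24 and P28, and of 0.02 and -0.11 at P20 and P60. Hist1h3g had a difference of 3.53, which no longer passed with 10 of the 24 libraries left out singly, and Hist1h3b of 3.34. These genes are near-identical copies of each other, so the split of reads among them is uncertain.

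Because the division genes moved together, their promoters were read for the letters by which cell-cycle genes are known to be controlled. The words searched, on both strands of the 250 bases before each start, were TTTGAA or TTCGAA (the cell-cycle homology region, CHR), CCAAT, and the E2F words TTTCCCGC, TTTGGCGC and TTTCGCGC, none of which contains another. RefSeq (GRCm38.p6) held promoters for 49 of the 59 mitosis genes (83.1%) and 41 of the 50 replication genes (82%), and for some genes more than 1. Of the 54 mitosis promoters 40.7% held a CHR word and 72.2% CCAAT, with 40.7% holding at least 2 CCAAT. Of the 48 replication promoters 16.7% held a CHR word, 54.2% CCAAT and 18.8% an E2F word, which 7.41% of the mitosis promoters held. Over the 13589 promoters of the genes tested the shares were 12% for CHR, 34.9% for CCAAT and 2.69% for E2F words, and over all 32851 promoters held by RefSeq they were 17.1%, 33.8% and 1.53%. A match is a description of the letters and not a site. Shown are the 120 bases before the start, with matches in capitals, for the mitosis genes Spc25 (chr2:69206214-69206333, minus strand) and Ncapg (chr5:45669805-45669924, plus strand), for the replication genes Mcm10 (chr2:5012792-5012911, minus strand), Rrm2 (chr12:24708134-24708253, plus strand) and Chaf1b (chr16:93883781-93883900, plus strand), which have the largest differences of their lists among the genes with a promoter in the table (Tpx2 had no entry), and for Cdk1 (chr10:69352913-69353032, minus strand), the mitotic kinase, which was picked for its letters after its value was seen (difference 2.03, adjusted p = 0.0436).
Spc25: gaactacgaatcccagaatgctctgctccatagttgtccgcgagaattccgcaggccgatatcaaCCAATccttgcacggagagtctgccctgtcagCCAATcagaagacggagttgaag
Ncapg: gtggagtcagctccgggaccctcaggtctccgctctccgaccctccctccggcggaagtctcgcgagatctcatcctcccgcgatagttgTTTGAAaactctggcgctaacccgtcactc
Cdk1: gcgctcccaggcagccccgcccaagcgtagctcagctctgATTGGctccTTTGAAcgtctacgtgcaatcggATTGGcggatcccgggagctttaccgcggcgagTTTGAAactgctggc
Mcm10: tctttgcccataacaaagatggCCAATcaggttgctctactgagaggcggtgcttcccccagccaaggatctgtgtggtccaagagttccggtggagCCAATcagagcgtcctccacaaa
Rrm2: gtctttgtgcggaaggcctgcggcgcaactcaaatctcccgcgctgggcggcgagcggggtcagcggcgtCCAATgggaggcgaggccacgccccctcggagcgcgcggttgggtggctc
Chaf1b: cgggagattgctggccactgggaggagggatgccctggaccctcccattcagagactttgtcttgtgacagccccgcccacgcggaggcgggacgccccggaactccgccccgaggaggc
Cdk1 holds 2 CHR words and 2 CCAAT in these bases, Spc25 and Mcm10 hold 2 CCAAT each, Rrm2 holds 1 CCAAT, Ncapg holds 1 CHR word, and Chaf1b, with as large a difference as Rrm2, holds none of the words.

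**Figure D3:**
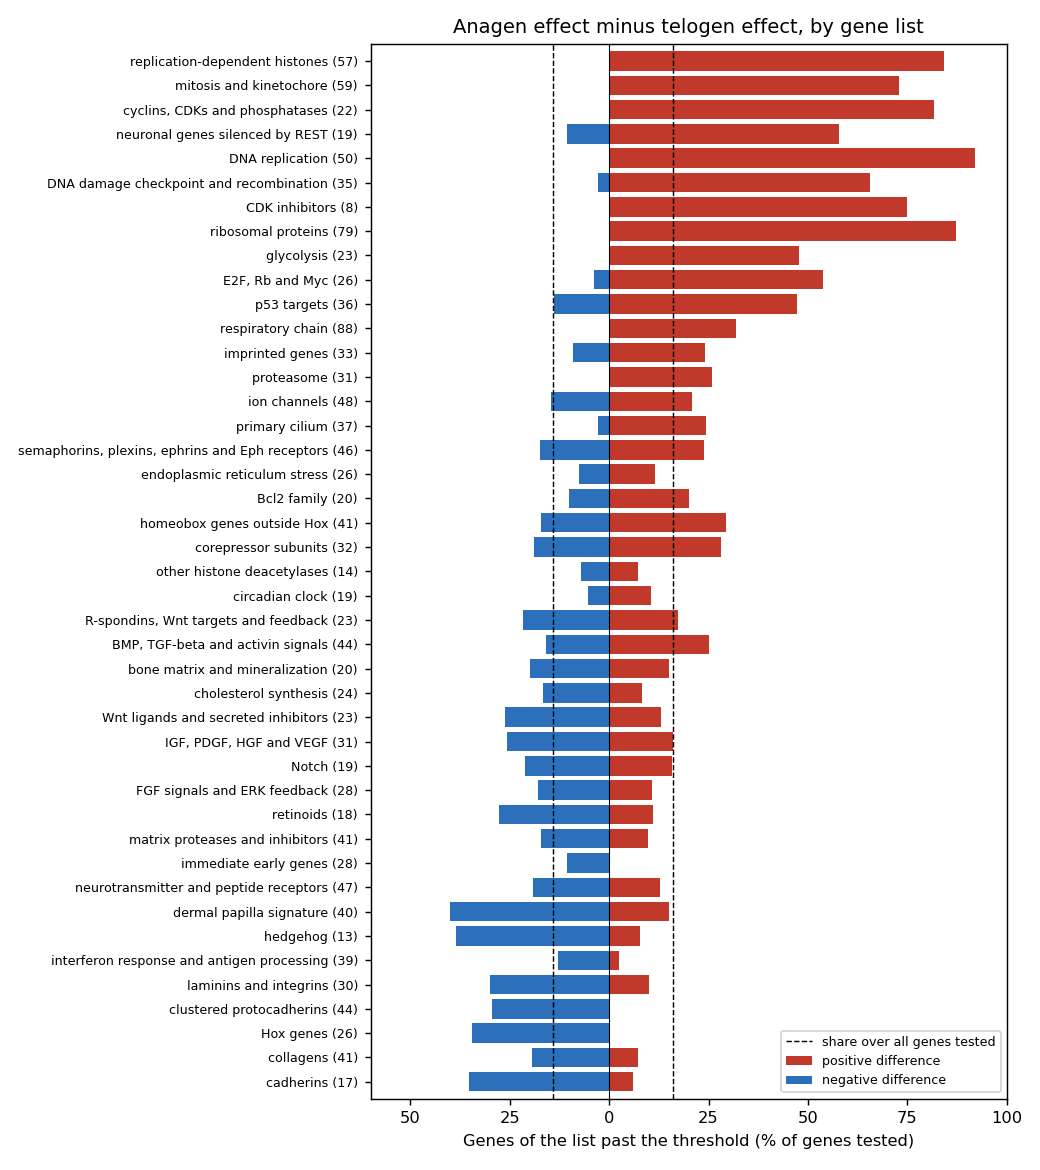
Share of the tested members of each of 43 gene lists with a positive or a negative difference past the threshold, with dashed lines at the shares over all genes, 16.1% positive and 14.1% negative. Lists of division, replication histones and ribosomal proteins lie far to the positive side with no negative member, and the Hox genes and clustered protocadherins that passed are all negative.

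Genes of DNA repair and p53 targets had more positive than negative differences. Of 35 genes of the DNA damage checkpoint and of recombination 23 were positive and 1, Nbn (-0.74), negative (median difference 1.21). Brca1, which acts in repair by recombination, had 32.2, 23.1 and 24.7 normalized reads in the P28 controls and 346.7, 306.8 and 306.7 in dM1/2, and a difference of 2.99 ± 0.37 (adjusted p = 1.92e-05). Of 36 p53 targets 17 were positive, 5 negative and 14 did not pass (median 0.52). The positive share was 47.2%, against 16.1% over all genes, and the negative share of 13.9% lay at the 14.1% over all genes. The positive p53 targets were led by Psrc1 (2.79), the death receptor Eda2r (2.74) and Pidd1 (1.90), with Ddit4l (-1.52) and Plk2 (-1.19) on the other side. None of these positive calls passed in limma with P24 as the only anagen age (adjusted p = 0.192, 0.0839 and 0.101) or against P60 alone (0.0719, 0.0648 and 0.101). Eda2r was uneven in the P28 controls, at 117.0, 107.0 and 6.1 normalized reads. Ddit4l was lost with P28 as the only anagen age (adjusted p = 0.173) and against P20 alone (0.0836). Trp53, the gene of p53, had a small difference of 0.40 ± 0.14 (adjusted p = 0.0327), and its effect was 0.81 at P28 but 0.03 at P24, 0.07 at P20 and -0.02 at P60. With 8 of the 24 libraries left out singly Trp53 no longer passed.

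In the Bcl2 family 4 of 20 genes were positive and 2 negative, a share of 30% that lay at the 30.2% over all genes. The positive members included Bbc3 (0.92) and Bax (0.66), which promote cell death. The negative members were Bcl2l1 (-1.03) and Bcl2l2 (-0.67), which inhibit it. Bcl2l1 had 1026, 764.6 and 1088 normalized reads in the P24 controls against 408.5, 324.5 and 386.9 in dM1/2, and 664.6, 547.6 and 727.0 against 259.3, 309.4 and 283.4 at P28. At P20 it had 567.8, 578.9 and 547.8 against 300.2, 677.2 and 599.2. The groups stood apart in anagen and overlapped at P20, and the difference of -1.03 ± 0.21 passed (adjusted p = 0.00124). Bbc3 differed in its telogen effects, which were 0.92 at P20 and -0.04 at P60, and its anagen effects of 1.19 and 1.52 lay above both. Its difference of 0.92 no longer passed with 8 of the 24 libraries left out singly.

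In the signature of the DP negative differences were more frequent than positive ones. Of 40 signature genes 16 had a negative and 6 a positive difference and 18 did not pass, with a median of -0.27. The negative share was 40% and the positive 15%, against 14.1% and 16.1% over all genes. The median effect of the signature genes was 0.35 at P20 and -0.61 at P60 in telogen, and -0.45 and -0.66 at P24 and P28. The P60 median thus lay between those of anagen, and the P20 median, at the age when dM1/2 also held more of the summed DP markers, was the only one above 0. Corin (chr5:72300025-72504473), a membrane protease that marks the DP and whose locus carries Cre in every mouse here, had 12267, 17134 and 15411 normalized reads in the P24 controls against 4754, 3537 and 3138 in dM1/2, and 41112, 30326 and 75255 against 4581, 4009 and 5005 at P28. In telogen it had 760.6, 338.2 and 481.8 against 1203, 644.0 and 715.8 at P20 and 249.8, 431.4 and 608.7 against 151.5, 133.3 and 298.9 at P60. The controls of anagen thus held far more Corin than those of telogen, and each dM1/2 library of anagen stood below each control. The difference was -2.44 ± 0.37 (adjusted p = 0.000112), with telogen effects of 0.72 at P20 and -1.14 at P60.

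Some secreted signals of the DP had negative differences, while others, given further on, had positive ones or did not pass. Fgf7, a growth factor for keratinocytes, had 12541, 18377 and 10568 normalized reads in the P24 controls against 3795, 4004 and 3645 in dM1/2, and 12442, 4908 and 15936 against 2413, 1955 and 2201 at P28, while the telogen libraries of both genotypes held 702.8 to 1921. Its difference was -1.90 ± 0.32 (adjusted p = 0.000245). Fgf10, which acts on the same receptor, had a difference of -1.53 ± 0.41 (adjusted p = 0.00745), with telogen effects of 0.56 at P20 and -0.65 at P60, and against P60 alone its difference of -0.93 did not pass. Sostdc1, a secreted inhibitor of BMP and Wnt signals, fell by 3.13 in anagen and had a difference of -2.23. Snap91, an endocytosis protein, had a difference of -2.72. Against them Foxd1 (2.26), a transcription factor, Prom1 (2.21), a membrane protein used as a stem cell marker, and Prdm1 (1.86), a repressor, had positive differences.

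Each of the 4 R-spondins, which amplify Wnt signals in receiving cells, was lower in dM1/2 at P28 (effects of -2.67 to -0.63, each past the threshold), where each dM1/2 library stood below each control, but their differences between the stages varied. Rspo2 had 7873, 8123 and 8405 normalized reads in the P24 controls against 3373, 3283 and 1962 in dM1/2, and 7485, 3467 and 10106 against 1415, 834.3 and 857.9 at P28, with a difference of -1.45 ± 0.34 (adjusted p = 0.00364). It was also lower at P60, with 254.0, 221.6 and 242.1 in the controls against 83.3, 57.8 and 70.6 (effect -1.76), but not at P20 (0.44). Against P60 alone the difference of Rspo2 was -0.35 and did not pass, so it rests on P20. Rspo3 had a difference of -0.79 (adjusted p = 0.0384) with effects of 0.42 at P20 and -1.08 at P60, and of -0.04 against P60 alone. That call was lost with 12 of the 24 libraries left out singly and without the filter on low reads (adjusted p = 0.0535). Rspo1 had 4806, 4010 and 5544 normalized reads in the P28 controls against 3130, 2929 and 3160 in dM1/2, and Rspo4 16691, 16662 and 37365 against 6097, 4232 and 3683. For Rspo1 the difference was -0.05 with a 95% interval of -0.48 to 0.38, and for Rspo4, with 780.8 to 7363 normalized reads among the P24 controls alone, -1.18 with an interval of -2.49 to 0.14. Neither passed, although Rspo4 ranged from -1.62 to -0.81 with a library left out and passed without P24 control 3 (adjusted p = 0.024) and with DESeq2 (-1.53, adjusted p = 0.0273). Nor did the difference pass for Axin2, a target and inhibitor of Wnt signals (-0.33, interval -0.90 to 0.24). Over the 23 R-spondins, Wnt targets and feedback genes 4 were positive and 5 negative, with a median of -0.05. These were 17.4% and 21.7% of the list, against 16.1% and 14.1% over all genes.

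**Figure D4:**
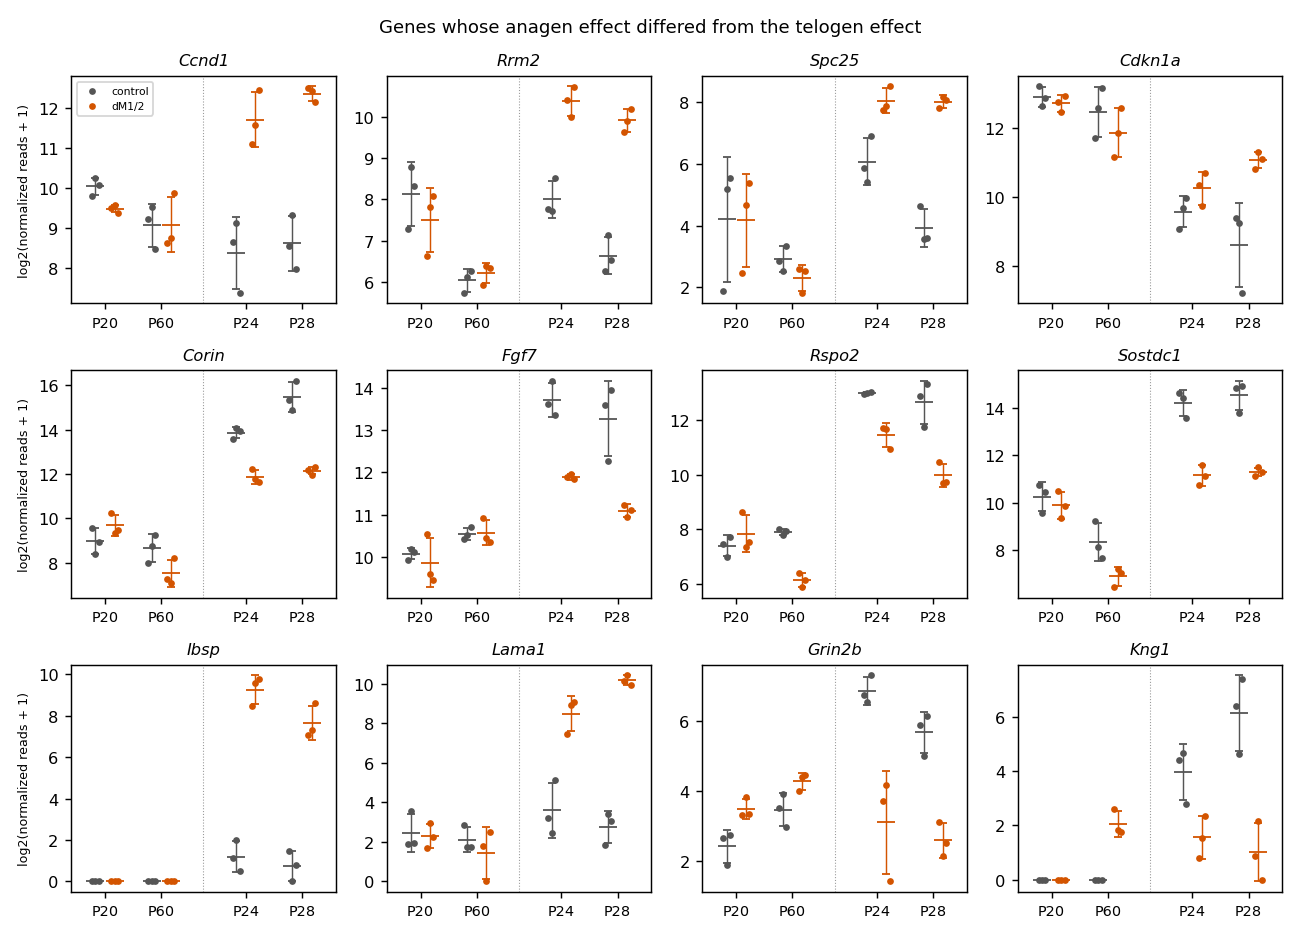
Levels of 12 genes whose anagen effect differed from the telogen effect, in each of the 24 libraries, as log2 of normalized reads + 1, by age (telogen P20 and P60, then anagen P24 and P28) and genotype. Points are libraries and bars the mean ± SD of 3. In Corin and Fgf7 the dM1/2 libraries stand below the controls at P24 and P28, in Ccnd1 and Ibsp above them, and in telogen most of the groups overlap.

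Wnt ligands and their secreted inhibitors differed in sign. Of 23 such genes 3 were positive and 6 negative (median -0.14), or 13% and 26.1%, against 16.1% and 14.1% over all genes. The ligands Wnt4 (3.01), Wnt6 (2.82) and Wnt10a (2.02) had positive differences, and the inhibitors Sostdc1, Sfrp2 (-2.12) and Sfrp1 (-1.97) negative ones. Wnt6 had 84.4, 105.0 and 119.5 normalized reads in the P28 controls and 1322, 1896 and 1435 in dM1/2, against 1647, 936.1 and 1228 and 2610, 2266 and 2482 at P20. The anagen controls thus had less Wnt6 than any P20 library, and the P28 dM1/2 libraries lay near the P20 controls. Sfrp1 had 50271, 38464 and 75205 in the P28 controls against 6743, 6328 and 6397, and overlapped in telogen.

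Signals of the BMP and TGF-beta family, which hold follicles in rest or pattern them, were split, with 11 of 44 genes positive and 7 negative (median -0.06). The positive share was 25% and the negative 15.9%, against 16.1% and 14.1% over all genes. The antagonists Chrdl2 (4.69) and Grem1 (3.39) and the ligand Bmp7 (2.12) had positive differences, and the ligands Bmp6 (-1.98) and Tgfb2 (-0.99) and the secreted Fstl1 (-1.22) negative ones. Chrdl2 held at most 11.5 normalized reads outside the anagen dM1/2 libraries and 57.1 to 92.1 in them. It thus passed the filter on low reads only through those libraries, and in edgeR its difference did not pass (adjusted p = 0.995). Bmp7 had 1065, 1027 and 1570 normalized reads in the P24 controls and 5189, 4150 and 5133 in dM1/2, and its difference of 2.12 ± 0.24 (adjusted p = 9.83e-06) averages telogen effects of 0.79 at P20 and -1.03 at P60. Grem1 had 98.3, 939.5 and 62.2 in the P28 controls against 3113, 3452 and 2987, and 1952, 2479 and 2043 against 1729, 2595 and 3010 at P60. Control 2 of P28, which stood highest of the P28 controls in fibroblast markers, was also the highest in Grem1, and the part of such cells in that value was not tested.

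In the FGF and ERK list 3 of 28 genes were positive and 5 negative (median -0.20). Dusp2 (2.33) and Dusp6 (1.71), phosphatases that feed back on ERK, had positive differences, and the ligands Fgf7, Fgf10 and Fgf2 (-1.15) negative ones, as had Fgfr1 (-0.64) and Dusp4 (-1.09), which were named after their values were seen. Dusp6 had 485.4, 458.6 and 457.7 normalized reads in the P28 controls against 2005, 2735 and 1978, and 457.6 to 863.3 in the telogen controls against 497.3 to 734.5 in the telogen dM1/2 libraries. Its difference of 1.71 ± 0.19 passed with an adjusted p of 6.99e-06.

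Of 13 hedgehog genes 1 was positive and 5 negative (median -0.32), and 46.2% passed, against 30.2% over all genes. The pathway's transcription factor Gli2 (-1.03) and its inhibitor Hhip (-0.82, lost with 3 libraries left out singly) were among the negative ones, while Foxf1 (3.22), a target in mesenchyme, was positive. Among 19 Notch genes 3 were positive and 4 negative (median -0.16), a share of 36.8% near that over all genes. Hes1 (1.41), a repressor that Notch induces, and Hey2 (-1.42), a relative of it, stood on opposite sides. Notch4 had a difference of -2.40 that came mostly from P28, where the controls held 881.2, 554.0 and 448.3 normalized reads and the dM1/2 libraries 50.3, 59.6 and 55.8. Of 18 retinoid genes 2 were positive and 5 negative (median -0.20), a share of 38.9%. The synthetic enzyme Aldh1a3 (-2.52) was the most negative, and Cyp26b1, which degrades retinoic acid, was positive (1.60).

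Growth factors outside these families changed in both directions. Igf2, an imprinted growth factor, had 594.7, 435.8 and 393.0 normalized reads in the P24 controls and 2129, 4970 and 7679 in dM1/2, and 1435, 567.4 and 646.6 against 18084, 24877 and 15230 at P28, while the telogen libraries held 287.8 to 1158 in both genotypes. Its difference was 3.93 ± 0.44 (adjusted p = 8.69e-06). Hgf (-1.93) and Edn3 (-1.80), factors that act on epithelium and melanocytes, were negative. Edn3 had 10897, 9565 and 8444 in the P24 controls against 2054, 2597 and 3287. Of 31 genes of this list (IGF, PDGF, HGF and VEGF) 5 were positive and 8 negative, and of 33 imprinted genes 8 were positive and 3 negative (median 0.35). The shares called were 41.9% and 33.3%, and that of the imprinted genes lay near the 30.2% over all genes.

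Several of the largest positive differences were of genes near or at 0 in the controls of every age. Those named here and in the next paragraph were picked by size among genes whose anagen groups did not overlap. Their differences and adjusted p-values are therefore a description. Genes near 0 outside the anagen dM1/2 libraries also pass the filter on low reads only through those libraries. Ibsp (chr5:104299171-104311469), bone sialoprotein, had 0.0 normalized reads in each of the 12 telogen libraries, 0.0 to 3.0 in the 6 anagen controls and 131.3 to 860.3 in the 6 anagen dM1/2 libraries. Its difference was 7.48 ± 0.56 (adjusted p = 1.74e-07). Lama1, a laminin chain of basement membranes, had 2.6, 9.6 and 7.2 in the P28 controls and 1130, 1395 and 984.0 in dM1/2, against 0.0 to 10.8 in telogen (difference 6.57 ± 0.72). Gata2 (6.0), a transcription factor of blood and endothelium, Chrm4 (6.02), a muscarinic receptor, and Pnma2 (5.27), a neuronal antigen, were likewise low in each telogen library and high in the anagen dM1/2 libraries. In Ibsp a count of 0 allows up to 3 reads in a telogen library, 8171944 to 13369732 reads deep.

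Prlhr, the receptor of a neuropeptide, had 0.0 in each anagen control, so its fold is a lower bound. Against a floor of 3 reads in a library, its dM1/2 mean was at least 42.2-fold higher at P24 and at least 144.2-fold higher at P28. The P24 dM1/2 libraries held 4.4, 51.4 and 107.2 normalized reads, so the bound of that mean does not hold for each of them. In edgeR neither Prlhr nor Ibsp passed (adjusted p = 1 for both). Kcnip1, a potassium channel subunit, had 0.0, 0.6 and 0.0 normalized reads in the P28 controls and 40.9, 71.1 and 53.4 in dM1/2 (difference 5.56). Dio3, an imprinted enzyme that inactivates thyroid hormone, differed from the others in that it was measured in telogen too. It had 44.1, 42.9 and 62.3 normalized reads in the P60 controls against 17.7, 10.1 and 9.4 in dM1/2, and 40.2, 28.1 and 5.6 in the P24 controls against 624.8, 1673 and 1368. Its effects were 0.96 at P20, -1.95 at P60, 5.82 at P24 and 3.80 at P28, and its difference 5.31 ± 0.64 (adjusted p = 1.57e-05).

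Of 35 listed neuronal genes that REST silences in other tissues only 19 passed the filter on low reads, 11 of them with a positive and 2 with a negative difference. Members that are near 0 except in the anagen dM1/2 libraries pass such a filter through those libraries, so the count is no measure of the list. The positive ones were led by Disp2 (4.92), Mapk8ip2 (3.86) and the sodium channel subunit Scn3b (2.82). The synaptic vesicle protein Syp (-2.69) and the granule protein Scg3 (-1.57) were the negative members. Syp had 124.4, 110.2 and 351.5 normalized reads in the P28 controls and 17.9, 17.1 and 24.1 in dM1/2, against 77.7, 95.3 and 99.1 and 191.9, 123.2 and 113.0 at P60, where the dM1/2 libraries stood above the controls. Of 48 ion channels 10 were positive and 7 negative (median 0.20), and of 47 receptors of transmitters and peptides 6 and 9 (median -0.27), near the 16.1% and 14.1% over all genes.

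The 8 most negative differences among genes whose anagen groups did not overlap are a description, since their size chose them. Of these genes Kng1, Lrrc7 and P2rx2 also passed the filter on low reads only through the anagen controls, where they were high. Outside those controls they held at most 5.0, 22.6 and 7.2 normalized reads. Grin2b, an NMDA receptor subunit, had 106.8, 92.9 and 160.0 normalized reads in the P24 controls and 12.4, 17.1 and 1.7 in dM1/2, and in telogen 2.7 to 14.3 in the controls and 9.1 to 21.2 in dM1/2. Its difference was -4.37 ± 0.55 (adjusted p = 2.2e-05). Kng1, kininogen (-4.80), which did not pass in edgeR (adjusted p = 1), the postsynaptic proteins Lrrc7 (-3.89) and Lrfn2 (-3.84), the potassium channel Kcnc4 (-3.80), the ATP-gated channel P2rx2 (-3.46), the peptide receptor Npy4r (-3.40) and the phosphatase Ptprt (-3.87) were the others named. Ptprt reached 1326, 4003 and 1566 in the P24 controls against 173.0, 522.9 and 325.7 in dM1/2, but 0.0 to 21.4 in the telogen controls against 5.0 to 42.0. Its telogen effect of 2.09 had the other sign from its anagen effect of -1.78 and did not pass (adjusted p = 0.195).

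Among matrix and adhesion genes, 8 of 41 collagens were negative and 3 positive (median -0.57), and the 26.8% that passed lay near the 30.2% over all genes. The basement membrane chains Col4a1 (-1.49) and Col4a2 (-1.35) and the fibril-associated Col14a1 (-1.37) led the first and Col26a1 (2.34), Col9a3 (2.0) and Col9a2 (1.84) the second. The collagens' median effect was -0.25 at P20 and 0.38 at P60. The fibroblast sum was lower in dM1/2 at P20, but at P60 the groups overlapped, with 206250, 98188 and 94454 in dM1/2 against 116263, 95861 and 94381. P60 dM1/2 replicate 1, the highest of these sums, was also highest at P60 in Col4a1, with 63223 normalized reads against 24427 to 35120 in the others. The part of other fibroblasts in the collagen medians was not tested. Col14a1 no longer passed with 14 of the 24 libraries left out singly. Of 30 laminins and integrins 9 were negative and 3 positive (30% negative, against 14.1% over all genes), and of 17 cadherins 6 and 1 (35.3% negative, median -0.80). Cdh8 (4.69), a neuronal cadherin, was the positive one: it had 0.0, 0.6 and 1.5 normalized reads in the P28 controls and 379.5, 523.2 and 452.4 in dM1/2. Outside the anagen dM1/2 libraries Cdh8 held at most 25.9, and it passed the filter on low reads only through those libraries. Cdh19 (-2.94) and Cdh6 (-2.14) were the most negative, and Cdh6 had 1160, 1015 and 2362 in the P28 controls against 135.2, 96.8 and 130.9, but only 243.0, 335.4 and 178.2 against 155.2, 123.8 and 139.3 at P24.

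Among clustered genes no positive difference passed. Of 26 Hox genes with enough reads, which keep the body position of fibroblasts, 9 were negative, 0 positive and 17 did not pass (median -0.56), and Hoxb3 (-2.25) lay at the end of the range. Hoxb3 had 172.2, 305.8 and 176.3 normalized reads in the P24 controls and 82.5, 57.5 and 51.1 in dM1/2, against 45.9 to 119.6 in the telogen controls and 59.1 to 171.7 in the telogen dM1/2 libraries. Of 44 clustered protocadherins, neuronal adhesion genes that share exons, 13 were negative and 0 positive (median -0.46). Their negative share of 29.5% stood against 14.1% over all genes. In anagen itself 2 Hox genes and 1 protocadherin were higher in dM1/2. Reads of their shared exons cannot be assigned with certainty. Homeobox genes outside the Hox clusters were mixed, with 12 of 41 positive and 7 negative, and Dlx3 (3.21), Dlx5 (2.96) and Hmx1 (2.58) had the most positive differences.

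The ribosomal protein genes had small positive differences. Of 79 genes of ribosomal proteins 69 were positive and 0 negative, with a median of only 0.75 and a range of 0.54 to 1.26 among those that passed. Rps19, at the top, had 3701, 3413 and 2976 normalized reads in the P28 controls and 7892, 11841 and 9033 in dM1/2, and 3948 to 6209 in telogen over both genotypes. Many of these genes have near-identical pseudogenes, so their reads are uncertain. Of 88 respiratory chain genes 28 were positive and 0 negative (median 0.39), of 31 proteasome genes 8 and 0 (median 0.23), of 23 glycolysis genes 11 and 0 (median 0.61), and of 37 primary cilium genes 9 and 1 (median 0.18). Most genes of the respiratory chain, proteasome and cilium lists thus did not pass. The shares called in them, 31.8%, 25.8% and 27%, lay near the 30.2% over all genes. All or nearly all of these calls were positive, however, and over all genes 16.1% were positive. Aldoc, the brain form of aldolase, stood out in glycolysis with a difference of 4.32, from 2.6, 5.1 and 8.0 in the P28 controls to 229.0, 337.2 and 174.6. Outside the anagen dM1/2 libraries Aldoc was low, at 2.3 to 20.1 normalized reads. The list medians of this paragraph kept their sign with TMM scaling in limma and edgeR and with DESeq2.

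Other lists varied in the share called, which was 30.2% over all genes. It was 10.7% in the immediate early genes, 14.3% in the other histone deacetylases, 15.4% in the interferon list and 15.8% in the clock genes. In the corepressor subunits it was 46.9% and in the semaphorin list 41.3%. In the rest it ran from 19.2% (endoplasmic reticulum stress) to 35% (bone matrix). Of 14 other histone deacetylases, Hdac6 (0.87) was positive and Hdac4 (-1.25) negative, and of 32 corepressor subunits 9 were positive and 6 negative (median 0.03), with Sap30 (2.30) of the Sin3 complex and Rcor2 (2.18) of CoREST at the top. Of 39 interferon and antigen processing genes 1 was positive and 5 negative. Their median difference was -0.38, but it was 0.02 when anagen was set against P20 alone and -0.82 against P60 alone. Of 28 immediate early genes 3 were negative and 0 positive, of 24 cholesterol synthesis genes 4 and 2, of 19 clock genes 1 and 2, of 26 genes of endoplasmic reticulum stress 2 and 3, of 41 matrix proteases and inhibitors 7 and 4, of 20 bone matrix genes 4 and 3, and of 46 semaphorins, ephrins and their receptors 8 and 11.

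Only 2 genes had effects past the threshold in both stages with opposite signs. Slc35d3 (chr10:19847916-19851459), a nucleotide sugar transporter known from platelet granules, fell in anagen and rose in telogen. It had 113.0, 188.8 and 55.6 normalized reads in the P24 controls against 9.1, 18.3 and 15.6 in dM1/2, and 24.4, 10.2 and 22.8 against 11.9, 9.0 and 7.2 at P28. In telogen it had 5.4, 2.7 and 2.9 against 15.9, 22.1 and 25.9 at P20, and 0.0, 2.4 and 0.0 against 5.0, 12.6 and 7.1 at P60. The genotypes stood apart at P20, P24 and P60 and overlapped at P28. The anagen effect was -1.87 (adjusted p = 0.00047), the telogen effect 2.41 (adjusted p = 0.0159) and the difference -4.28 ± 0.55 (adjusted p = 2.36e-05). The telogen values rest on at most 2 reads a library in the controls and 2 to 14 in dM1/2.

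Grb14 (chr2:64912476-65024987), an adaptor that dampens insulin receptor signals, did the reverse. It had 623.3, 655.7 and 528.4 normalized reads in the P24 controls against 1326, 1183 and 1252 in dM1/2, and 682.5, 545.0 and 1014 against 1145, 1208 and 1247 at P28. At P60 it had 138.5, 219.3 and 292.8 against 50.5, 45.3 and 70.6, while at P20 the groups lay close, at 241.1, 262.4 and 266.7 against 300.2, 272.2 and 294.1. The anagen effect was 0.89 (adjusted p = 0.000111), the telogen effect -0.87 (adjusted p = 0.03) and the difference 1.76 ± 0.22 (adjusted p = 2.36e-05). The telogen side came from P60 (effect -1.91) and not from P20 (0.17), a contrast that itself passed (-2.08, adjusted p = 0.011), so the opposite sign was seen at P60 only. Grb14 was no longer called in both stages without any single one of P20 controls 2 and 3, the P20 dM1/2 libraries 1, 2 and 3, P60 controls 2 and 3 and P60 dM1/2 library 2. Slc35d3 kept both calls whichever library was left out. With other settings it was Slc35d3 that was lost and Grb14 that stayed. These were a pseudocount of 10, at least 10 reads in every library, edgeR, P28 as the only anagen age and P60 as the only telogen age. With a log2 size of at least 1 only Slc35d3 stayed.

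A small set of genes was higher in dM1/2 in both stages. Of the 28 genes with a telogen effect past the threshold, 22 also rose in anagen, 8 of these with a positive difference, 14 with a difference that did not pass and 0 with a negative one. Tmem151b, a membrane protein, had 88.4, 78.5 and 63.1 normalized reads in the P20 controls against 413.8, 272.2 and 223.8 in dM1/2, and 275.8, 111.4 and 255.6 against 724.1, 722.1 and 553.2 at P28. Its effects were 1.94, 1.22, 1.34 and 1.73 at P20, P60, P24 and P28, and its difference -0.04 with a 95% interval of -0.83 to 0.75. The intervals were -0.62 to 0.50 for Adam11, a membrane protein of neurons, and -1.09 to 0.98 for Caskin1, a synaptic scaffold. Chrna4, a nicotinic receptor subunit, rose in both stages with a difference of 1.49 that did not pass (adjusted p = 0.108). Its telogen controls held only 0.0 to 7.1 normalized reads, and the result hung on the setting. In limma the difference was 2.55 with a pseudocount of 10 (adjusted p = 0.000116). Without P60 dM1/2 replicate 3 it was 1.90 (adjusted p = 0.0234), and both passed.

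Of the 8 that rose in both stages with a positive difference 5 are given here. Kcna6, a potassium channel, had 10.7, 8.1 and 22.9 normalized reads in the P20 controls against 61.4, 33.2 and 49.9 in dM1/2, and 17, 12.2 and 36.0 against 730.5, 614.1 and 636.3 at P28. Its telogen effect was 2.53 (adjusted p = 0.0109), its anagen effect 3.99 and its difference 1.46 (adjusted p = 0.0485). This call was at the threshold: it was lost with 18 of the 24 libraries left out singly, with edgeR (adjusted p = 0.199), with DESeq2 (0.104) and against P60 alone, where the difference was 0.74 (adjusted p = 0.459). Nova2, a splicing factor of neurons, had effects of 1.63 in telogen and 4.59 in anagen, Efna3, an ephrin, of 2.29 and 4.54, Ryr1, a calcium release channel, of 2.36 and 5.01, and Atp1b1, a sodium pump subunit, of 1.40 and 2.86. In limma with P24 as the only anagen age the differences of Efna3 and Ryr1 did not pass (adjusted p = 0.151 and 0.186). Nor did that of Efna3 against P60 alone (0.0743) or that of Ryr1 against P20 alone (0.0699). The telogen controls held 0 to 7 reads of Ryr1. For Atp1b1 the anagen effect was uneven, 1.37 at P24, where a single dM1/2 library had 270.4 and the others 953.6 and 1024, and 4.36 at P28.

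For 4 genes, Slc35d3 among them, the difference was negative and the telogen effect passed and was the larger. Elfn1, a postsynaptic adhesion protein, had 80.4, 135.3 and 94.6 normalized reads in the P20 controls against 238.8, 221.3 and 297.8 in dM1/2, and 29.4, 50 and 64.6 against 118.7, 130.7 and 221.2 at P60. In anagen its groups overlapped at both ages, and the difference was -1.88 ± 0.41 (adjusted p = 0.00188). Tmem136, a membrane protein, had a telogen effect of 0.77, an anagen effect of -0.32 and a difference of -1.09 ± 0.19 (adjusted p = 0.000363). Col9a1, a cartilage collagen chain, had 0.0 in each telogen control and 2.2 to 32.9 in the telogen dM1/2 libraries, while all anagen libraries expressed it, at 116.8 to 429.3 in the controls and 272.6 to 560.5 in dM1/2 (difference -2.04, adjusted p = 0.00864). With a pseudocount of 10 the difference of Col9a1 was -0.04 and did not pass. For Slc9a7, a sodium and proton exchanger with a telogen effect of 2.13, the anagen effect of 0.92 and the difference of -1.21 (adjusted p = 0.146) did not pass.

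**Figure D5:**
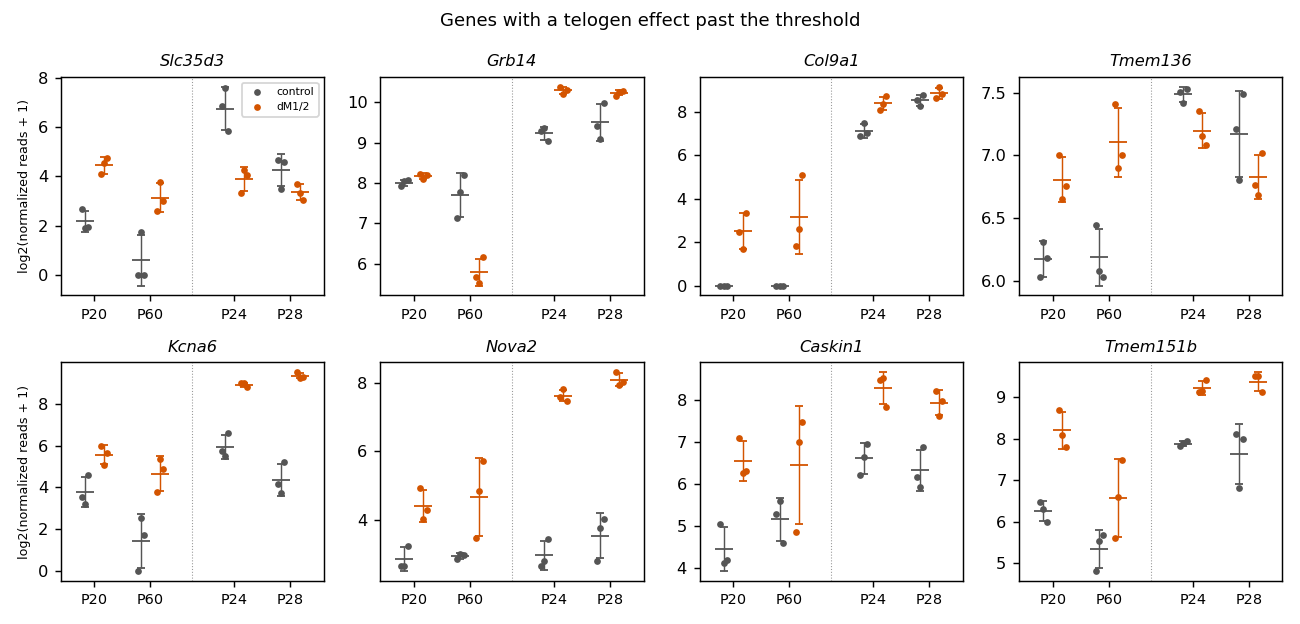
Levels of 8 genes with a telogen effect past the threshold, in each of the 24 libraries, as log2 of normalized reads + 1, by age and genotype. Points are libraries and bars the mean ± SD of 3. Slc35d3 stands higher in dM1/2 in telogen and lower at P24, Grb14 stands lower at P60 and higher in anagen, and Tmem151b stands higher at P20, P24 and P28.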

How the data were processed

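YFP+ cells were FACS-sorted from the skin of individual mice, and ribosome-depleted, strand-specific libraries were sequenced. The authors trimmed reads with Trimmomatic, aligned them with TopHat2 to mm10, counted them per gene with HTSeq (whether strand was used is not given in the sources used here) and normalized them with DESeq2. The deposited signal values are therefore reads divided by a size factor for each library: 100% of the values were whole multiples of the library's smallest value within 0.001 reads, so whole reads could be recovered. The authors' log2 fold changes and p-values, which the same files hold, were not used.

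Here the 4 tables were joined by gene identifier, and log2(normalized reads + 1) was fitted with limma 3.58.1 (R 4.3.3; 8 group means, trend, Benjamini-Hochberg over all genes with a mean of at least 10). The deposited size factors were set over all 24 libraries together: the median ratio of a library to the geometric mean over the 24 was the same in each, so levels can be read across ages. Alternatives were a pseudocount of 10, other filters, edgeR 4.0.16, DESeq2 1.42.0, TMM, the replicate block, library weights, single ages and leaving out each library. The fits were tested on simulated data.

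The members, gene lists and named genes were chosen with earlier results of these data known. Named were the genes that the study names for the DP, the 8 largest differences in each direction with anagen groups apart, genes opposite or alike in both stages, genes larger in telogen, and up to 3 per direction of each of 43 lists. Other genes are marked as named after their values were seen, except marker genes. Replicates were separate mice. Gene coordinates are from GENCODE M21 (GRCm38). Results for some genes are not reported here.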

Additional observations from a re-analysis of the deposited data

Results flagged for a closer look

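The effect of the ablation differed between the stages for 4298 genes by the limma contrast, and this count is listed because it is itself a difference between groups of ages under the same comparison. Within a stage, 90 genes differed between P28 and P24 and 9 between P60 and P20. Among the genes named, Notch4 (-2.75) and Cdh6 (-2.73) fell more at P28 than at P24, as P28 effect minus P24 effect on the log2 scale, and Atp1b1 (2.99) rose more at P28.

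Effects that passed in both stages with opposite signs were found for 2 genes, Slc35d3 (difference -4.28) and Grb14 (difference 1.76). For Grb14 the P60 effect was also lower than the P20 effect, by -2.08, so its mean over telogen stands for P60 more than for P20. No group was searched for samples far from the others, since each holds 3 libraries.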

How the results depend on the processing

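Of 113 named genes with a difference past the threshold, 105 passed whichever library was left out (not Bbc3, Col14a1, Hhip, Hist1h3g, Kcna6, Mga, Rspo3 and Trp53), 105 with TMM in limma, edgeR and DESeq2 alike (not Chrdl2, Col9a2, Dlx5, Ibsp, Kcna6, Kng1, Mga and Prlhr), 113 with the fibroblast covariate (chosen after seeing the data), and 60 with each anagen age and each telogen age alone. The count of 4298 genes ran from 3719 to 4416 with a library left out and was 4342 with edgeR and 4839 with DESeq2, but 1666 with P24 as the only anagen age, 2848 with P20 as the only telogen age, 2555 at an adjusted p under 0.01, 1782 with a log2 size of at least 1 (2315 for the anagen effect) and 6632 with estimated library weights, which gave P28 control 1 a weight of 86 and each other library at most 3.87. With a library left out the anagen count ran from 6222 to 7141, the telogen count from 4 to 160, the genes opposite in both stages from 1 to 7 and those alike from 2 to 135. The P28 minus P24 count ran from 23 to 159 and the P60 minus P20 count from 3 to 85.

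The small counts moved with nearly every setting. The telogen count of 28 was 52 without the filter, 16 with at least 10 reads in every library, 12 with edgeR, 90 with DESeq2, 423 with weights, 2 at 0.01, 18 with a size of at least 1 and 62 with the covariate. The 2 opposite genes became 1, Grb14, with a pseudocount of 10, with at least 10 reads or with P28 as the only anagen age. With a size of at least 1 they became 1, Slc35d3, and with edgeR they were Grb14 and Tmem136. They became 0 at 0.01 and against P20 alone, 4 with DESeq2 or the covariate and 42 with weights. The 22 alike became 13 with at least 10 reads, 10 with edgeR or against P60 alone, 77 with DESeq2, 314 with weights, 1 at 0.01, 14 with a size of at least 1 and 51 with the covariate. For P28 minus P24, the 90 became 162 with a pseudocount of 10, 159 with edgeR, 413 with DESeq2, 2971 with weights, 16 at 0.01 and 174 with the covariate, and for P60 minus P20 the 9 became 16 without the filter, 1 with at least 10 reads, 3 with edgeR, 59 with DESeq2, 75 with weights and 2 at 0.01. The cause was not tested.

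The replicate numbers did not pair the samples: the correlation of same-numbered deviations ran from -0.388 to 0.304, and not every library correlated best with its own number. With the replicate block 3939 genes differed between the stages, 17 passed in telogen, 11 were alike, 3 opposite, and 74 and 38 differed within anagen and telogen.

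Genes with a difference near 0 changed its sign. With a library left out Adam11 ran from -0.24 to 0.06, Caskin1 from -0.45 to 0.21, Rspo1 from -0.21 to 0.06 and Tmem151b from -0.28 to 0.19. With a pseudocount of 10 they stood at 0.00 (Adam11), 0.11 (Caskin1) and 0.05 (Tmem151b). With P24 alone Adam11 was 0.03, Axin2 0.15 and Rspo1 0.32, and with P28 alone Tmem151b was 0.15. Atp1b1 was not near 0: its difference passed and ran from 1.29 to 1.77 with a library left out. With P24 as the only anagen age it fell to -0.03 and its call was lost. Against P20 alone Adam11 was 0.08, and against P60 alone Caskin1 was 0.35, Rspo1 0.20 and Tmem151b 0.32. Depth limits the telogen effect of genes with few reads there.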
